A study of Arabidopsis thaliana with 3 samples.

Results

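AKINBETA1 (AT5G21170) and 4 genes known as low-energy markers, AT4G27450, AT2G20670, AT2G05540 and AT5G39520, were followed in Arabidopsis thaliana recovering from freezing. Each was matched by symbol or locus code to a probe set that names 1 gene, and each had 1 such probe set, so the results concern 5 of the 13513 probe sets naming 1 gene and of the 22746 Arabidopsis probe sets on the Affymetrix ATH1 array. The 5 were picked because their signals on these arrays were already known to be high at 24 h. Their ratios are therefore given as a description, and no test is attached to them.

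All plants were of the Col-0 accession, raised in compost at 20 °C under 9 h of light and 15 h of dark and then kept for 11 days at 4 °C under the same cycle. Whole aerial parts were taken from 3 groups with 1 array each, the copy that the labels number 3. The cold-acclimated array came from plants harvested at hour 5 of the light period, without freezing. The 3 h and 24 h arrays came from cold-acclimated plants that went into a freezing step of 20 h when the light went off. The labels print its temperature as 6.0 °C with no sign. These plants were then held at 20 °C in darkness for 3 h or 24 h. Counted through that schedule, the 3 h plants had last seen scheduled light 23 h earlier and were taken at hour 8 of the 24 h cycle. For the 24 h plants the values were 44 h and hour 5. The sources used here do not say whether there was light during freezing, or how many plants went into an array. Freezing, warming and time without light therefore cannot be told apart in either comparison with the cold-acclimated array. The hour of the cycle was matched for 24 h over cold-acclimated. It differed for 3 h over cold-acclimated, and between the 2 recovery arrays recovery time cannot be told apart from longer darkness or from the hour of the cycle.

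SnRK1 is the plant relative of the yeast SNF1 and animal AMPK kinases. It is a complex of a catalytic alpha subunit with beta and gamma-type subunits, is active when sugars and energy run low, and shifts transcription from growth and biosynthesis towards the breakdown of stored carbon, protein and amino acids. AKINBETA1 encodes a beta subunit, the part of the complex that links the catalytic subunit to the gamma-type subunit and helps to place the kinase in the cell. Darkness that outlasts the normal night is a standard way to bring this programme on in leaves, and low-energy marker genes are used as readouts of it.

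The 3 arrays had median signals of 42.6 (cold-acclimated), 39.5 (3 h) and 42.8 (24 h). Between 69.6 and 70.5% of Arabidopsis probe sets lay at or above a floor of 16.1, the 30th percentile of all Arabidopsis signals, below which signals were set to the floor. With 1 array per group there was no replicate check and no p-value could be given. The error attached to a log2 ratio below is the SD of the disagreement between 2 probe sets of one gene, divided by the square root of 2. It was 0.40 for 24 h over cold-acclimated (76 genes), 0.35 for 24 h over 3 h (75 genes) and 0.33 for 3 h over cold-acclimated (76 genes). It covers error that differs between probe sets of the same arrays. It covers neither an error shared by a whole array nor the spread between plants. Bacterial control transcripts spiked into each hybridization gave 1.66 times the cold-acclimated signal on the 3 h array and 1.42 times on the 24 h array. Scaling to them (hybridization control scaling) would lower every log2 ratio over cold-acclimated by 0.73 at 3 h and 0.51 at 24 h, apart from those limited by the floor. Leaf genes were bright on all arrays, with LHCB4.1, a light-harvesting protein, at 3243, 2855 and 4298 (cold-acclimated, 3 h and 24 h). The root hair expansin EXPA7 was near the floor or below it, at 20.5, 22.5 and 8.38. These 2 are among the 3 of 12 green-tissue and 1 of 9 root genes that could be named. None of 4 flower and pollen genes could. The 10 named reference genes, of 14 looked for, all lay within 2-fold as reported. Their median log2 ratios were 0.05 for 24 h and -0.10 for 3 h over cold-acclimated, or -0.46 and -0.83 with scaling to the spiked controls. With that scaling, 2 passed 2-fold downward at 24 h and 3 at 3 h, beside 21.5% and 33.9% of all measured probe sets. In whole aerial parts, fewer cells expressing a gene and less RNA per cell cannot be told apart.

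AKINBETA1 had signals of 54.9 (cold-acclimated), 57.2 (3 h) and 431.5 (24 h). The first 2 arrays were close together and the 24 h array was far above both. Its log2 ratio was 2.97 ± 0.40 for 24 h over cold-acclimated, or 7.86-fold, and 2.92 ± 0.35 for 24 h over 3 h, or 7.55-fold. For 3 h over cold-acclimated it was 0.06 ± 0.33, less than the disagreement between probe sets. Within each array's own ranking of signals, which no rescaling of a whole array can move, AKINBETA1 lay at percentiles 56.1 (cold-acclimated), 58.9 (3 h) and 93.5 (24 h).

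AT4G27450 encodes a protein of the aluminium-induced family with YGL and LRDR motifs, the family of the dark-induced gene AT3G15450. It stood at 32.8, 42.0 and 1173 on the cold-acclimated, 3 h and 24 h arrays. The 24 h signal was 35.8-fold the cold-acclimated one (log2 ratio 5.16 ± 0.40), the largest such ratio among the 5 genes. The 3 h ratio of 0.36 ± 0.33 was about the size of its error. AT2G05540, annotated as a glycine-rich protein, had the same course, with 37.0, 53.0 and 812.8. Its log2 ratio for 24 h over cold-acclimated was 4.46 ± 0.40, a 22.0-fold difference, and its 3 h ratio of 0.52 ± 0.33 lay within 2-fold.

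The other 2 genes were lower at 3 h before they were high at 24 h. AT5G39520, a member of a family with a conserved domain of unknown function, stood at 51.8, 21.4 and 638.6 on the cold-acclimated, 3 h and 24 h arrays. Its 3 h signal was 2.42-fold lower than the cold-acclimated one (log2 ratio -1.27 ± 0.33) and its 24 h signal 12.3-fold higher (3.62 ± 0.40). AT2G20670, a member of another plant family of unknown function, stood at 38.0, 4.38 and 956.1. The 3 h value lies below the floor, so its ratios are bounds. It was lower at 3 h by at least 2.36-fold relative to cold-acclimated, and higher at 24 h by at least 59.2-fold relative to 3 h. This last bound moves with the floor, from a log2 ratio of 4.84 with the floor at the 45th percentile to 7.77 with none, against 5.89 as reported. Between 24 h and cold-acclimated, both above the floor, it was 25.1-fold higher (4.65 ± 0.40). The percentile of AT2G20670 within its array was 47.4 (cold-acclimated), 15.4 (3 h) and 97.7 (24 h), and that of AT5G39520 was 54.6, 36.3 and 96.0.

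**Figure D1:**
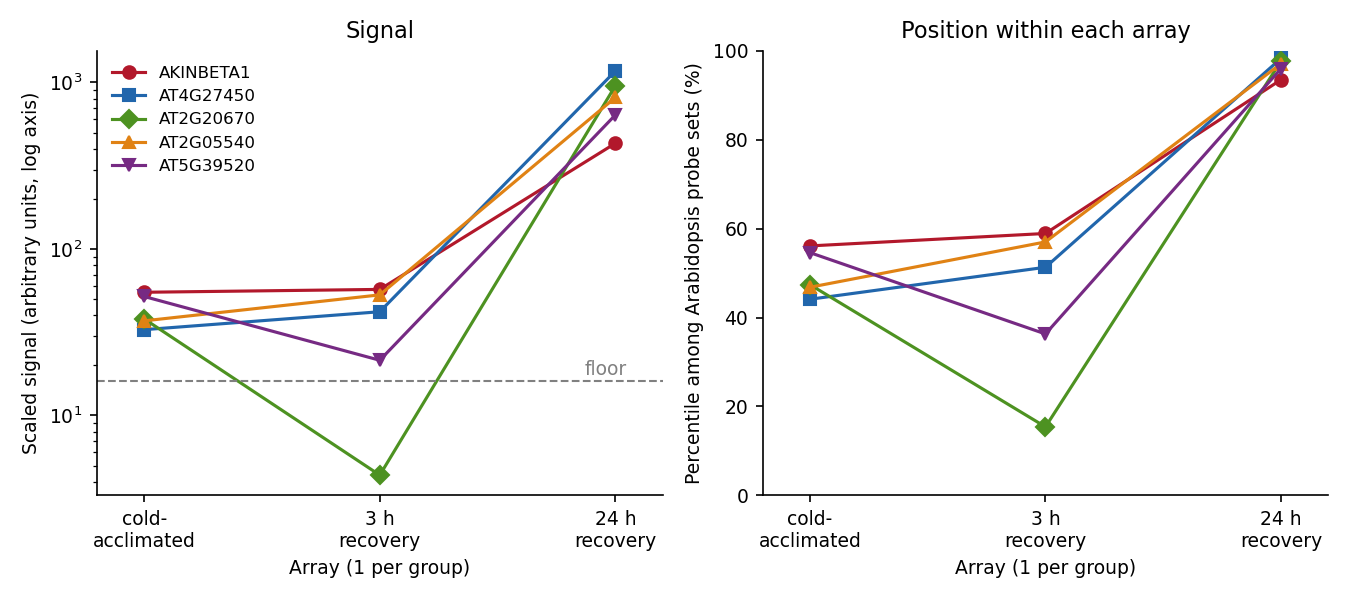
Scaled signal on a log axis (left) and percentile among all Arabidopsis probe sets of the same array (right) for the 5 genes, 1 point per array, with the floor of 16.1 dashed. At 24 h all 5 lie at percentile 93.5 or above, and at 3 h only AT2G20670 lies below the floor.

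At 24 h all 5 genes exceeded the cold-acclimated signal by 2-fold or more, as did 8.56% of the 16965 measured probe sets, and 0 of 5 were lower by that much (background 8.47%). A probe set counted as measured when it reached the floor on either array. All 5 also exceeded their 3 h signal by 2-fold or more at 24 h, against 10.7% of 16968 probe sets, and 0 of 5 were lower (background 8.67%). For 3 h over cold-acclimated, 0 of 5 were higher by 2-fold or more (background 6.11% of 16769) and 2 of 5 were lower by 2-fold or more (background 3.95%). The genes were chosen from these contrasts, so nothing is read from these shares. The background itself depends on scaling. Higher probe sets made up 50.3% of the 2-fold differences for 24 h over cold-acclimated, or 15.3% with scaling to the hybridization controls. For 24 h over 3 h the share was 55.2%, or 43.2% with reference gene scaling and 71.6% with the hybridization controls. For 3 h over cold-acclimated it was 60.7%, or 73.9% after loess and 7.26% with the hybridization controls.

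In the order of log2 ratios for 24 h over cold-acclimated, AT4G27450 ranked 4th from the top of all measured probe sets, AT2G20670 7th, AT2G05540 10th, AT5G39520 30th and AKINBETA1 73rd. The gaps between neighbours in this order were 0.51, 0.19, 0.83 and 0.65, and the SD of a difference between 2 such ratios was 0.56. Only the gaps below AT2G05540 and below AT5G39520 were thus larger than 1 SD, and neither reached 2 SD. AKINBETA1 lay 2.19 below AT4G27450, which is 3.91 SD. For 24 h over 3 h the order was AT2G20670 (a bound), AT5G39520, AT4G27450, AT2G05540 and AKINBETA1, with AT5G39520 and AT4G27450 only 0.09 apart.

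**Figure D2:**
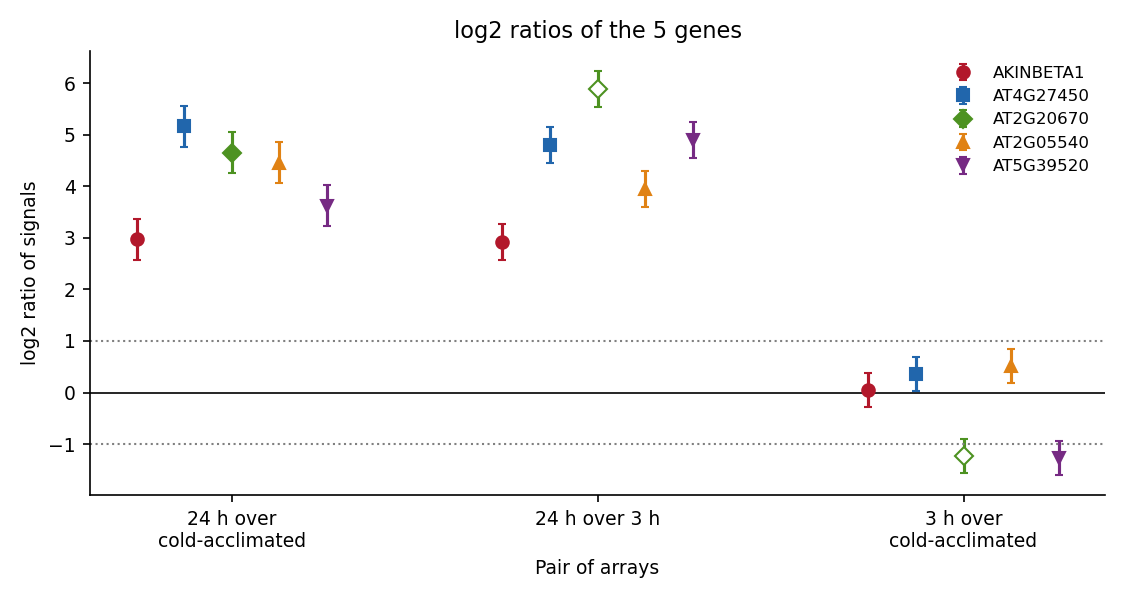
log2 ratios of the 5 genes for each pair of arrays, with bars of ± 1 SD from genes with 2 probe sets and dotted lines at 2-fold. Open symbols use the 3 h signal of AT2G20670 at the floor and are bounds. All 5 lie at 2.92 or above in both comparisons of the 24 h array.

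For 3 h over cold-acclimated, AKINBETA1, AT4G27450 and AT2G05540 lay between 0.06 and 0.52, closer to each other than 1 SD of a difference (0.47). AT5G39520 lay at -1.27, and the gap of 1.33 between AKINBETA1 and AT5G39520 was 2.85 SD. AT2G20670 was at or below -1.24, a value that the floor sets (-3.12 without a floor). A signal at least 2-fold lower at 3 h was found for 663 probe sets. At 24 h, 68 of these (10.3%) exceeded the cold-acclimated signal by 2-fold or more, AT2G20670 and AT5G39520 among them, while 414 (62.4%) lay within 2-fold of it and 181 (27.3%) were at least 2-fold lower. The shape that all 5 share, at least 4-fold higher at 24 h than on both other arrays, was found for 175 probe sets, 1.03% of those measured. Of the 175, 73 name 1 gene, and 164 were within 2-fold of the cold-acclimated array at 3 h. At 16-fold, 10 probe sets remained, and AT4G27450 and AT2G20670 were the 2 of the 5 genes in that set. Both comparisons rest on the one 24 h array.

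**Figure D3:**
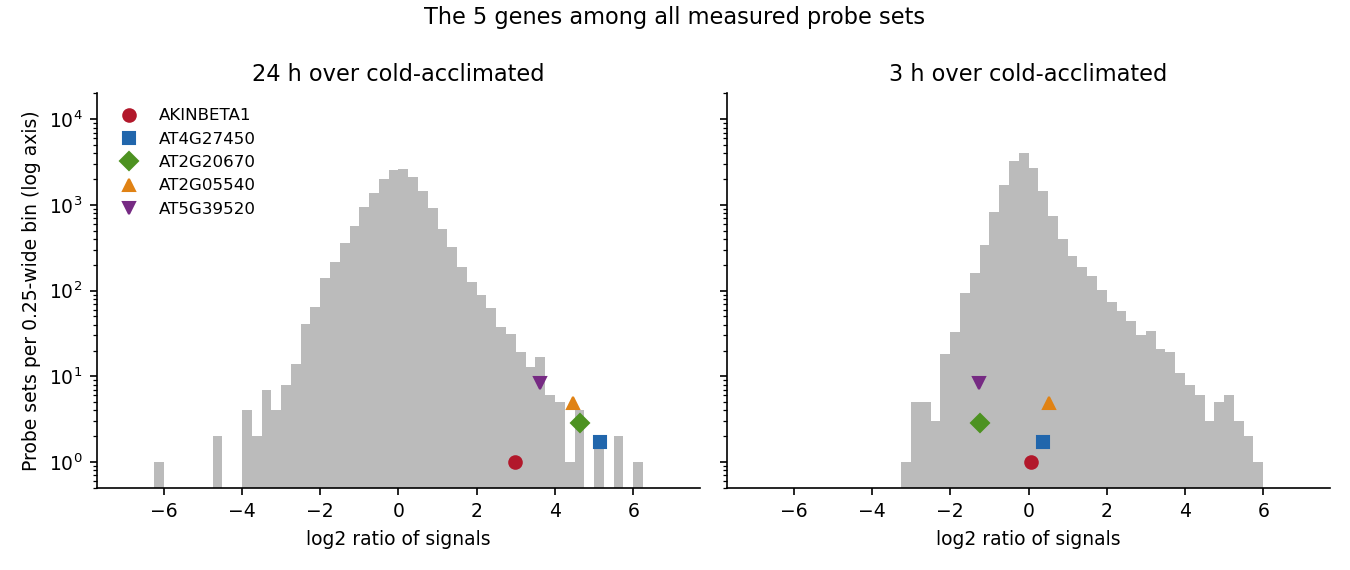
Number of measured probe sets by log2 ratio in bins of 0.25 (grey bars, log axis) for 24 h and for 3 h over cold-acclimated, with the 5 genes marked at their ratios; the height of a symbol has no meaning. The 5 genes lie in the upper tail at 24 h, from 2.97 to 5.16, and between -1.27 and 0.52 at 3 h.

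The other 2 SnRK1 beta subunits did not show the 24 h signal of AKINBETA1. Of the 8 subunit genes looked for, 3 could be named on the array, all of them beta subunits. AKINBETA2 (AT4G16360) stood at 132.9, 117.3 and 127.4 on the cold-acclimated, 3 h and 24 h arrays. AKINBETA3 (AT2G28060), a short plant-specific form, stood at 81.2, 73.1 and 91.6. Their log2 ratios for 24 h over cold-acclimated were -0.06 and 0.17, both smaller than the error of 0.40, against 2.97 for AKINBETA1. The median of these 2 small ratios ranged from -0.45 to 0.06 over the settings tried, so its sign depends on the scaling. The catalytic subunits KIN10 and KIN11, the gamma-type subunits SNF4 and KING1 and the upstream kinases GRIK1 and GRIK2 were not analysed here.

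A list of 33 further genes raised by low energy or by SnRK1 had 9 that could be named. For 24 h over cold-acclimated, 8 of these 9 passed 2-fold upward and 0 downward (7 and 0 with scaling to the hybridization controls), beside 8.56% upward and 8.47% downward of all measured probe sets, with a median log2 ratio of 2.39 beside 0.01 over all measured probe sets. This list overlaps with genes already known to be high on these arrays, so it is no independent evidence of direction. AT3G15450, a relative of AT4G27450, was at 421.7, 503.2 and 2214 (cold-acclimated, 3 h and 24 h). ALDH7B4, a stress-induced aldehyde dehydrogenase, was at 278.1, 709.7 and 1880 and differed from the 5 genes in being already 2.55-fold higher at 3 h, a ratio that falls within 2-fold under scaling to the hybridization controls. AT3G15630, of unknown function, was at 99.3, 149.0 and 398.3. The other 3 of the 6 largest ratios were those of the autophagy protein ATG8E (7.21-fold) and of the leucine breakdown enzymes IVD (5.94-fold) and MCCA (5.30-fold), all 3 within 2-fold at 3 h as reported. The gene that lay within 2-fold was AT1G15330, at 46.2, 38.2 and 61.9. ATL8, a ubiquitin ligase of the RING type, named here after its values were seen, had the low 3 h signal of AT5G39520, with 67.0, 20.2 and 158.7. For 3 h over cold-acclimated, 1 gene of the list passed 2-fold upward (ALDH7B4) and 1 downward (ATL8), beside 6.11% and 3.95% of all measured probe sets, and the median was 0.15. With scaling to the hybridization controls 0 passed upward and 3 downward, MCCA among them, and the median was -0.59.

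FLZ proteins are small zinc-finger proteins that bind the catalytic subunits and serve as adaptors. Of 13 written, 9 could be named on the array. At 24 h, 2 of the 9 passed 2-fold downward and 0 upward relative to cold-acclimated, beside 8.47% and 8.56% of all measured probe sets, with a median of -0.83, which ranged from -1.34 to -0.71 over the settings. At 3 h, 3 passed downward and 0 upward (median -0.75), beside 3.95% and 6.11%. With scaling to the hybridization controls 6 at 24 h and 7 at 3 h passed downward, but so did 21.5% and 33.9% of all measured probe sets. AT1G78020 (FLZ6) was at 250.6, 80.0 and 94.8 on the cold-acclimated, 3 h and 24 h arrays, and AT4G17670 (FLZ2) was at 163.6, 85.2 and 69.0. AT1G22160, AT3G22550, AT2G44670 and AT5G47060 had log2 ratios from -0.99 to -0.70 at 24 h, whereas AT1G74940 (0.39) and AT5G20700 (0.12) were above 0. These last 2 ratios were smaller than the error of 0.40, and scaling to the hybridization controls would take both below 0. Of the bZIP factors of groups C and S1, which act below SnRK1, 2 of 9 could be named on the array. Both BZIP53 (341.4, 459.1 and 428.8) and bZIP44 (27.8, 36.1 and 23.1) lay within 2-fold in all 3 comparisons. None of 17 genes of trehalose phosphate metabolism, another sugar signal of this pathway, could be named.

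The target of rapamycin kinase, TOR, acts opposite to SnRK1 when sugars are plentiful. Of 8 genes of its pathway, 3 could be named on the array. The TOR partners RAPTOR1 (74.1, 67.9 and 99.8) and RAPTOR2 (23.1, 24.4 and 20.7) lay within 2-fold on all pairs of arrays. AT5G63190 (MRF1), a translation regulator that lies downstream of TOR, was at 144.5, 129.9 and 608.2, a ratio of 4.21-fold for 24 h over cold-acclimated. Genes that sugars induce were also listed with earlier results of these arrays known, so they are no independent evidence of direction. All 4 that could be named (of 9 written) passed 2-fold downward for 24 h over cold-acclimated, beside 8.47% of all measured probe sets. Their median was -2.45, which ranged from -2.92 to -1.70 over the settings. They were UGT78D2, AT4G14090 and DFR of flavonoid and anthocyanin synthesis and APL3 of starch synthesis, the last at 154.7, 163.9 and 58.6. AT4G14090 lay below the floor at 24 h (2.99), so its ratio, which enters the median, is a bound. Of enzymes that SnRK1 can phosphorylate, ATSPS4F, a sucrose-phosphate synthase, was at 254.0, 139.2 and 23.8, and F2KP, which sets the level of fructose 2,6-bisphosphate, lay within 2-fold at 472.3, 395.0 and 450.4.

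**Figure D4:**
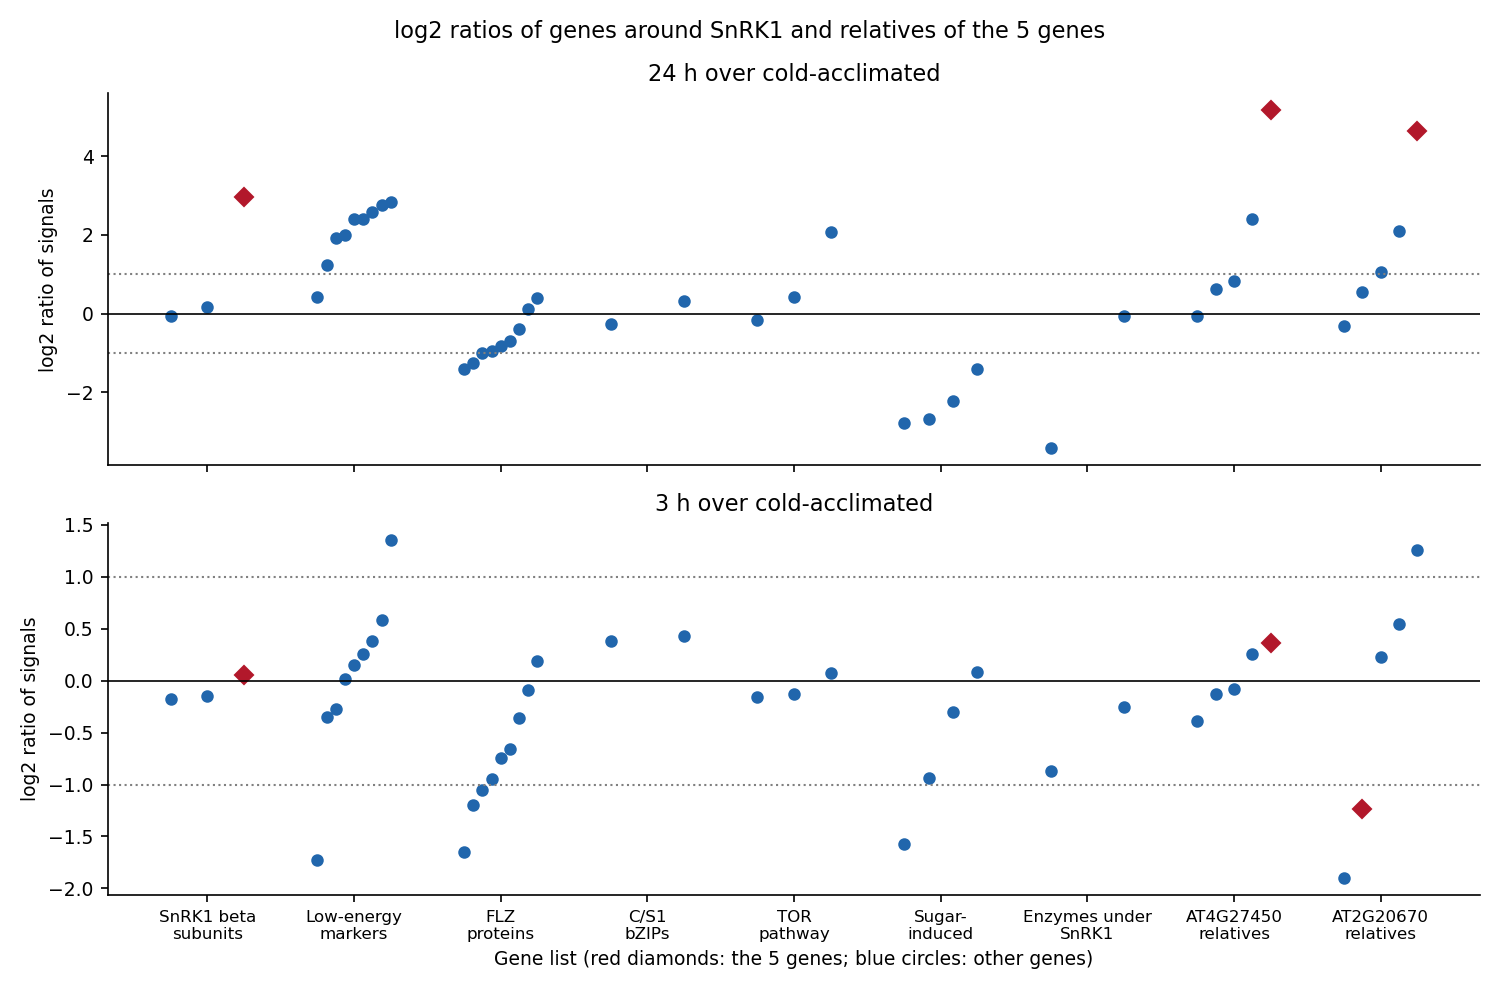
log2 ratios for 24 h (top) and 3 h (bottom) over cold-acclimated of the measured genes in each list, with AKINBETA1, AT4G27450 and AT2G20670 as red diamonds, other genes as blue circles and dotted lines at 2-fold. At 24 h AKINBETA1 stands apart from the other beta subunits, 8 of 9 low-energy genes lie above the upper line, and all 4 sugar-induced genes lie below the lower one.

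Relatives of the low-energy genes were followed to see whether a whole family was high. Of all measured probe sets, 8.56% were higher and 8.47% lower by 2-fold for 24 h over cold-acclimated. With so few relatives per family, nothing is read from their counts. Of the family of AT4G27450, all 4 other members could be named, and 1 passed 2-fold upward for 24 h over cold-acclimated. It was AT3G15450 (5.25-fold), which is also in the low-energy list above. AT5G43830 (501.7, 458.4 and 897.3), AILP1 (1174, 898.0 and 1820) and AT3G22850 (211.4, 200.2 and 201.6) lay within 2-fold of the cold-acclimated array at both times as reported. AILP1 passed 2-fold downward at 3 h under scaling to the hybridization controls. Of 11 relatives of AT2G20670, 5 could be named and 4 were measured. AT3G07350 was at 38.2, 55.8 and 163.3 (4.28-fold for 24 h over cold-acclimated), and AT2G38820 at 52.0, 60.9 and 108.4 (2.09-fold, or within 2-fold under scaling to the hybridization controls). AT3G22970, at 384.2, 102.9 and 559.4, was low at 3 h as AT2G20670 was, whereas AT2G39650 was high at 3 h, at 57.2, 136.8 and 46.2. The 3 h ratio of AT2G39650 over cold-acclimated fell within 2-fold under scaling to the hybridization controls. AT1G12030 was below the floor on all 3 arrays. AT2G05530, which lies beside AT2G05540 in the genome, was at 14.7, 19.2 and 27.7. AT5G04440, a relative of AT5G39520, was at 118.9, 61.8 and 127.7, which is within 2-fold of the cold-acclimated array at both times as reported. Its 3 h log2 ratio was -1.68 under scaling to the hybridization controls.

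Few genome neighbours could be followed. Of 20 protein-coding genes within 2 places of the 5 genes in the RefSeq order (assembly TAIR10.1), 6 were named on the array and measured. As reported, 0 of the 6 passed 2-fold in either direction in any of the 3 comparisons. Scaling to the hybridization controls would take AT2G20690 (-0.91 at 24 h and -0.57 at 3 h over cold-acclimated) and PORB at 3 h (-0.44) past 2-fold downward. Of all measured probe sets, 8.56% were higher and 8.47% lower by 2-fold for 24 h over cold-acclimated. The shares were 10.7% and 8.67% for 24 h over 3 h, and 6.11% and 3.95% for 3 h over cold-acclimated. With so few genes, a count of 0 in 6 is near the background. The nearest to AT4G27450 was PORB, an enzyme of chlorophyll synthesis, at 2168, 1593 and 2457 on the cold-acclimated, 3 h and 24 h arrays. No neighbour of AKINBETA1 or of AT5G39520 could be followed.

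The genes most like each of the 5 were sought by the Euclidean distance between their pairs of log2 ratios over cold-acclimated (3 h and 24 h), among 6856 probe sets of 1 gene. The distance rests on 3 arrays, with the cold-acclimated one in both ratios. For AKINBETA1 they were AT3G14280 (23.5, 24.2 and 179.1, at a distance of 0.05) and AT1G01240 (46.4, 46.8 and 429.3, at 0.24). The others were AT4G15690, AT1G09500 and PYK10, a beta-glucosidase of endoplasmic reticulum bodies. AT4G15690, AT1G09500 and PYK10 were below the floor on the cold-acclimated array, so their 24 h ratios are bounds and no distance is given. AT4G15690 and AT1G09500 were below it at 3 h too, so their 3 h ratio of 0 is set by the floor. None of the other 4 genes came closer to AKINBETA1 than 1.48. AT4G27450 was closest to the defensin-like PDF1.4 (28.5, 23.1 and 989.1, at 0.67), then to AT2G05540 (0.72) and to AT1G25230, a purple acid phosphatase (1.16). For AT2G20670 the genes were AT5G39520, PDF1.4 and AT1G62510, but its 3 h ratio is set by the floor, so no distance or order is given. AT2G05540 was closest to SIS, a salt-induced serine-rich protein (18.6, 30.1 and 276.6, at 0.59), AT1G25230 (0.60) and AT5G19120 (0.61). AT5G39520 was closest to AT1G62510 (29.4, 17.5 and 387.7, at 0.54), to the expansin EXPA8, itself below the floor at 3 h, and to AT4G33150, the lysine breakdown enzyme (43.5, 26.4 and 394.5, at 0.71).

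The ratios for 24 h over cold-acclimated and over 3 h held their direction and stayed past 2-fold for all 5 genes under each of the 11 alternative settings. Some of these settings could not move the 5 genes. Leaving out cross-hybridizing probe sets removed none of them, and the values as deposited were almost those reported. A lower floor or none could not move 24 h over cold-acclimated, where all 5 signals lay above the floor. For 24 h over cold-acclimated AKINBETA1 ranged from 2.46 to 3.02, AT4G27450 from 4.61 to 5.33, AT2G20670 from 4.14 to 4.79, AT2G05540 from 3.95 to 4.59 and AT5G39520 from 3.12 to 3.71. The 3 h ratios did not all do so. AKINBETA1, AT4G27450 and AT2G05540 turned to -0.68, -0.38 and -0.22 with scaling to the hybridization controls. AT2G20670 ranged from -3.12, with a lower floor or none, to -0.19, with a floor at the 45th percentile. AT5G39520 ranged from -2.01 to -0.64.

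**Figure D5:**
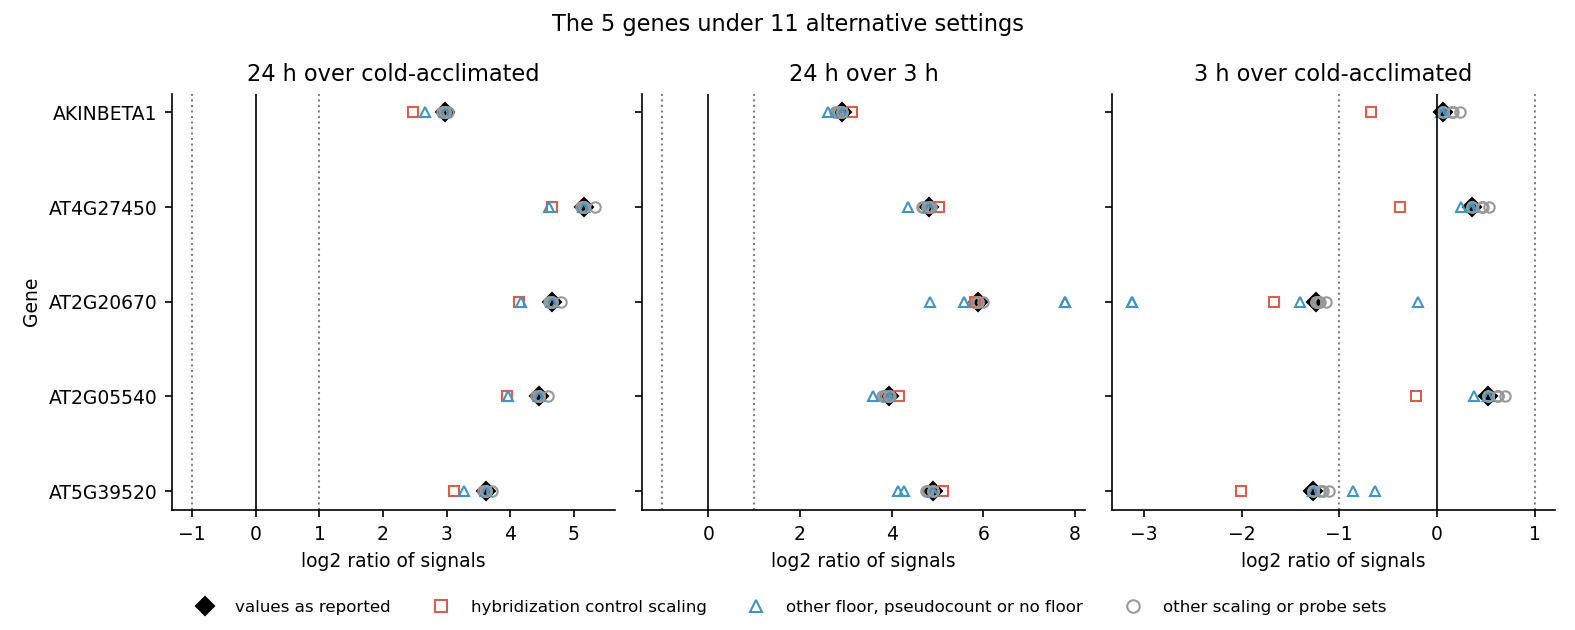
log2 ratios of the 5 genes (rows) for the 3 pairs of arrays under the reported setting (black diamonds) and 11 alternatives, with dotted lines at 2-fold. The 24 h ratios stay right of the upper line; at 3 h the ratios of AKINBETA1, AT4G27450 and AT2G05540 cross 0 and those of AT2G20670 and AT5G39520 cross the lower line.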

How the data were processed

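The authors deposited 1 linear intensity per probe set and array. Per the submitters' processing notes it was computed with MAS5; version and settings are not given in the sources used here. Detection calls were not used here. Each array was multiplied to a 2% trimmed mean of 100, which left the values almost as deposited. Signals below the 30th percentile of Arabidopsis signals (16.1) were set to it before log2 ratios between arrays were formed. The number of arrays limits the precision. Names follow the platform annotation, updated through RefSeq (TAIR10.1): 13513 probe sets named 1 gene, 503 several and 8730 none. The values name no build, so no coordinates are printed, and no sequence table was used here. The 5 genes and the 17 lists (171 places, 61 on the annotation) were chosen with earlier results of these data known. A gene is represented by its brightest probe set. Genes named were the 5, the measured SnRK1 subunits, up to 6 of largest 24 h ratio per list, and the 5 (AKINBETA1) or 3 nearest patterns, sought among non-cross-hybridizing probe sets whose brightest signal reached the median (41.7). Further list members named in the text were chosen after their values were seen. The functions were tested on simulated data. Software was Python 3.11.15, numpy 2.4.6, pandas 2.3.3, scipy 1.17.1, statsmodels 0.14.6 and matplotlib 3.10.9.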

Additional observations from a re-analysis of the deposited data

Results flagged for a closer look

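Affymetrix control probe sets outside the comparisons gave signals above the cold-acclimated array. Of 64, 1 was at least 2-fold higher at 3 h, a ubiquitin probe set at 2570 against 1236 on the cold-acclimated array. At 24 h there were 2, the 25S ribosomal RNA probe set at 1292 against 238.2 and another ubiquitin probe set at 2630 against 1223. The spiked controls themselves gave 1.66 times the cold-acclimated signal at 3 h and 1.42 times at 24 h. Scaling to them would bring both ubiquitin differences within 2-fold, but not the 25S difference at 24 h. The 25S signal at 3 h was 444.2, so like the 5 genes it was highest at 24 h, and its part in their ratios was not tested.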

How the results depend on the processing

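The 11 alternatives gave 132 values for 12 results (the AKINBETA1 ratio, the median of the 4 low-energy genes and the counts past 2-fold, in 3 comparisons). Of these values, 123 matched the reported one, within the error for a ratio or median and exactly for a count. A difference past 2-fold was reversed in 0. Some alternatives could not move these values. With scaling to the hybridization controls the log2 ratio of AKINBETA1 was 2.47 for 24 h and -0.68 for 3 h over cold-acclimated, and the median of the other 4 was 4.05 and -1.02, against -0.44 as reported for 3 h. With the floor at the 45th percentile that 3 h median was 0.071 and 0 genes passed 2-fold downward at 3 h, because this floor, 33.3, lies close to the cold-acclimated signals. With a pseudocount of 16 in place of the floor, 1 gene passed 2-fold downward at 3 h, and the median of the 4 was 4.07 for 24 h over cold-acclimated and 4.24 for 24 h over 3 h, since a pseudocount shrinks ratios of dim signals. No paired analysis was possible because each group held 1 array with the same replicate number. No array could be left out, as each group held 1. The 3 h signal of AT2G20670 lies below the floor, which limits its ratios with that array.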
